A study of Arabidopsis thaliana with 48 samples.

Results

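Nuclear photosynthesis genes were followed in Arabidopsis thaliana roots through 35 loci that encode light-harvesting proteins, the small subunit of Rubisco and subunits of both photosystems. The members were 4 LHCA, 13 LHCB, 4 RBCS, 8 PSA and 6 PSB genes, picked out by locus code among 33715 entries of the deposited count table. Of the 35 members, 34 passed the filter on low counts and were among the 20995 genes tested. LHCA4, an antenna protein of photosystem I, had 0 counts in all 48 libraries, which allows up to 3 counts, or 0.0678 to 0.148 CPM, in a library, where CPM is the count scaled to library size. The cause of its 0 counts was not tested.

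Each library held mRNA bound to FLAG-tagged ribosomes that were immunopurified from 6-day-old roots, so that it reports ribosome-associated mRNA of the cells in which the tag is made. Seedlings grew in continuous light and were given 100 nM brassinolide, a brassinosteroid hormone, for 0, 3 or 8 h. In Col-0 plants the tag was driven by 35S, labelled whole root, by pBRN2, labelled lateral root cap and columella, by pGL2, labelled epidermis, by pSCR, labelled endodermis, or by pSHR, labelled stele. In 3 further lines the plants carried bri1-116, a loss-of-function allele of the brassinosteroid receptor gene BRI1, and BRI1 was returned to 1 tissue. The names pGL2(pGL2BRI1), pGL2(pSCRBRI1) and pSCR(pSCRBRI1) give the promoter of the tag and, within brackets, that of the BRI1 transgene. Each of the 8 lines had 2 libraries at each of the 3 times, given as biological repetitions in the series design. How many plants made up a library was not given in the sources used here. No untreated library of 3 or 8 h was analysed, so each time comparison joins brassinolide with elapsed time and handling.

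Totals ran from 20556381 to 37685541 counts per library. Marker genes mostly matched the labelled tissue in the Col-0 lines, with summed endodermis markers of 6856 to 13898 CPM in pSCR and at most 476 CPM in pSHR. Epidermis markers separated pGL2 from pBRN2 less well, at 139 to 405 CPM against 86.8 to 213 CPM. Endodermis markers reached 732 CPM in pBRN2. Libraries labelled pGL2(pSCRBRI1) went against their label, since endodermis markers summed to 5312 to 8421 CPM and epidermis markers to 3.40 to 6.32 CPM, against 139 to 405 CPM of epidermis markers in pGL2. In pGL2(pGL2BRI1), replicate 2 at 0 h, replicate 1 at 3 h and replicate 2 at 8 h held 2194, 1028 and 2439 CPM of endodermis markers, and the other libraries of that line 125 to 180 CPM. A note on read length marks 21 libraries. It is on no 35S, pBRN2 or pSHR library and on every pSCR library, so that note and line cannot be told apart for pSCR against 35S. Within pGL2 at 0 h, replicate 1 lacks the note and replicate 2 carries it.

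In green tissue, LHCA and LHCB proteins bind chlorophyll and pass light energy to photosystems I and II. The PSA and PSB proteins build the photosystems and the water-splitting complex, and RBCS proteins form Rubisco, the enzyme of carbon fixation, with a chloroplast-encoded large subunit. These genes are induced by light and chloroplast signals through regulators such as GLK1, GLK2 and HY5, and in roots, whose plastids are mostly not green, they are held low.

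Promoters are shown for a pair of neighbouring Rubisco genes with large differences between 35S libraries, for PSAK, which differed between tissue lines, and for PSBR, the member with the highest level per coding length. Each run covers 250 bases before to 50 bases after the start of the deposited TAIR10 gene, was read from the RefSeq TAIR10.1 genome and is written 5′ to 3′ on the gene's strand. Capitals mark the G-box CACGTG, bound by bZIP factors such as HY5, and the I-box GATAAG, which reads CTTATC on the other strand. RBCS2B (AT5G38420) and RBCS3B (AT5G38410), neighbours on chromosome 5 that encode Rubisco small subunits, lie at chr5:15381986-15382285 and chr5:15378367-15378666 on the minus strand. PSAK (AT1G30380), at chr1:10721947-10722246 on the plus strand, encodes a photosystem I subunit near the antenna, and PSBR (AT1G79040), at chr1:29735766-29736065 on the plus strand, a subunit of photosystem II.
RBCS2B: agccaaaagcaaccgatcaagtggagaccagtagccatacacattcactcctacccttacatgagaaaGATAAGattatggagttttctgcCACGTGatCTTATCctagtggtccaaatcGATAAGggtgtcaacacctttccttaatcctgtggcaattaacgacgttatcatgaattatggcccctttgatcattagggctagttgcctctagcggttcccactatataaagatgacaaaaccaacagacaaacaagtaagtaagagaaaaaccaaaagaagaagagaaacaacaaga
RBCS3B: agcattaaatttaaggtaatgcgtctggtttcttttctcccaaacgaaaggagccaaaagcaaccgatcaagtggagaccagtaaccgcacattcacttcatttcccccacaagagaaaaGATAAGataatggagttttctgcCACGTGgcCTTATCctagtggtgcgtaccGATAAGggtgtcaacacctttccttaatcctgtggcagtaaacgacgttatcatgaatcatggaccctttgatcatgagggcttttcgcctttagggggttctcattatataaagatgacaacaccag
PSAK: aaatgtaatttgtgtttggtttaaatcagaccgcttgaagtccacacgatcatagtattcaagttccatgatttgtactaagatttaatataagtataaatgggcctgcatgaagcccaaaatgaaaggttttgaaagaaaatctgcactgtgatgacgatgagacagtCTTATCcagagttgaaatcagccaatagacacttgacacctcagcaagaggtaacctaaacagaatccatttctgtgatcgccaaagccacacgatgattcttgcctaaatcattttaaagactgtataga
PSBR: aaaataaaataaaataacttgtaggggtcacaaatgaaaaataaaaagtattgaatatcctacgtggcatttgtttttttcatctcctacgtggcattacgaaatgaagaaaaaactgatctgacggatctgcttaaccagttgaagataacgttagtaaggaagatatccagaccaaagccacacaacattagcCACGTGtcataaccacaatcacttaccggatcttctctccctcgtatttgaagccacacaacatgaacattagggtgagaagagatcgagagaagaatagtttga

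Over the same window, 15 of the 35 members held a G-box on either strand, which is 42.9% of members against 8.11% of 26710 promoters. The I-box was present in 23 members, or 65.7%, against 15.2% of all promoters. RBCS2B and RBCS3B each held 3 I-boxes and 1 G-box, PSAK held 1 I-box alone, and PSBR held 1 G-box alone. CGTGTG and CGTGCG, the forms of the element bound by the brassinosteroid factor BZR1, were present in 3 and 0 members, against 7.06% and 2.05% of all promoters. CGTGTG can share bases with a G-box. These matches are a description of the letters and say nothing of which factors bind.

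Reads of 50 bases do not always tell close family members apart. Of all 50-base windows of their transcripts, 10.6% to 29.5% were shared with another gene in LHCB1.1 to LHCB1.5, LHCB2.1, LHCB2.2, RBCS1B, RBCS2B, RBCS3B and LHCA2, and none in the other members, RBCS1A included. Single values of the first group are therefore uncertain, because reads could be split or lost among copies. The first 50 coding bases of the Rubisco genes show how the copies differ, with capitals at bases that differ from RBCS1A. They lie at chr1:25049200-25049249 for RBCS1A, and for the others at chr5:15385106-15385155, chr5:15381929-15381978 and chr5:15378257-15378306, all on the minus strand of TAIR10.1.
RBCS1A: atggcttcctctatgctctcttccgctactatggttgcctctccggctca
RBCS1B: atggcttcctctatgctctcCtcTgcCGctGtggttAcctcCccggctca
RBCS2B: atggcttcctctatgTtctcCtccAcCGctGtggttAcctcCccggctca
RBCS3B: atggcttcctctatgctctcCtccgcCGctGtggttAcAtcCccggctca
The 3 genes of chromosome 5 differ from RBCS1A at 7, 8 and 7 of the 50 bases. Gene models of LHCB3, LHCB4.2, LHCB6 and PSBR each overlap 1 neighbouring entry, and the library kit does not mark strand, so reads of the overlap cannot be assigned with certainty.

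Before brassinolide, the members were higher in the whole root than in any of the 4 Col-0 tissue lines. The levels of all members summed to 268.2 and 262.3 CPM in the 35S libraries. The sums were 97.6 and 91.7 CPM in pBRN2, 62.3 and 76.6 CPM in pGL2, 101.2 and 97.9 CPM in pSCR, and 127.4 and 81.6 CPM in pSHR. Both 35S libraries thus lay above all 8 tissue libraries, and the 4 tissue means were 0.262 to 0.394 of the 35S mean. CPM are relative to each library's own total. A different mix of cells in a library and a different mRNA level per cell cannot be told apart in such samples. Root cells outside the 4 tagged tissues had no library of their own, and their part in the 35S level was not tested.

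**Figure D1:**
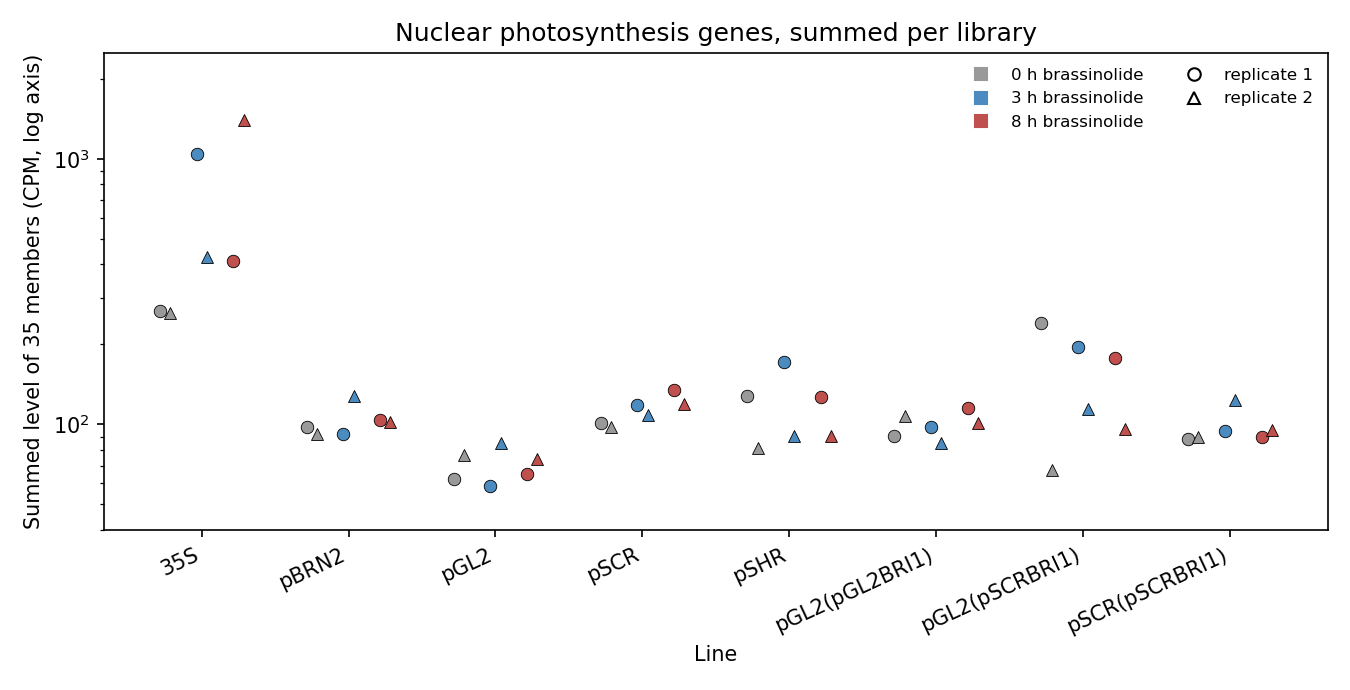
Summed level of the 35 members in CPM on a log axis for each of the 48 libraries, by line, with color for hours of brassinolide and shape for the replicate. The 35S libraries lie at 262.3 CPM and above, and replicate 1 at 3 h and replicate 2 at 8 h reach 1037.9 and 1403.3 CPM. The tissue lines lie between 58.6 and 240.4 CPM.

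Photosystem genes made up most of this difference. The 6 PSB genes summed to 124 ± 1.82 CPM (SD, n = 2) in 35S and to 23.2 ± 0.544 CPM in pGL2, the lowest tissue mean. The 8 PSA genes summed to 50.8 ± 2.49 CPM in 35S, 8.43 ± 0.250 CPM in pGL2 and 24.1 ± 0.245 CPM in pSCR. The 13 LHCB genes summed to 45.9 ± 0.461 CPM in 35S and to 24.1 to 28.3 CPM on average in the tissue lines. RBCS genes were 36.5 ± 5.50 CPM in 35S, 21.3 ± 10.2 CPM in pSHR and 5.01 ± 4.97 CPM in pSCR, where the replicates were far apart. Per kilobase of coding sequence, the highest members in 35S were PSBR at 161 CPM, RBCS1A at 62.3 CPM and PSAK at 47.6 CPM, and LHCB1.4, LHCB2.2 and LHCB2.3 stayed under 0.4 CPM.

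Tests across all genes gave members lower than 35S in every tissue line and none higher. With edgeR's quasi-likelihood test and Benjamini-Hochberg adjustment, 13 of 34 members were lower in pBRN2, where 22.9% of all genes were lower. In pGL2, 16 members were lower against 25.9% of all genes, in pSCR 13 against 22%, and in pSHR 10 against 18.9%. No member was higher in these comparisons by edgeR at an unadjusted p under 0.05, nor by DESeq2. Over all genes, 18.1%, 23%, 12.4% and 7.73% were higher with adjustment and 21.3%, 25.5%, 16.5% and 14% before it. The member medians were log2 changes of -1.49, -1.33, -1.45 and -1.11, against medians over all genes between -0.14 and 0.03. Without either pBRN2 replicate the count there was 8, and in pSHR it was 6 without 35S replicate 2 and 4 without pSHR replicate 2. With only the compared groups in the fit, 20 members were lower in pBRN2 and 20 in pSHR. The share of all genes lower in that fit is not given here, so a general rise in calls cannot be told apart. These comparisons share the 35S libraries.

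The 6 members lower in all 4 tissue lines were LHCA3, PSAF, PSAO, PSBO1, PSBR and PSBS, where 0.395% of all genes had that pattern. Membership of this list depended on the settings. The PSAO call in pBRN2 was lost under another scaling, RLE, and without the filter on low counts. The PSBO1 call in pSCR was lost without that filter and with the read note as a covariate. Each of these members lost a call in some line when a library was left out. PSBR had 69.9 and 66.2 CPM in 35S, 27.1 and 25.3 CPM in pBRN2, 15.6 and 12.9 CPM in pGL2, 20.9 and 30.0 CPM in pSCR, and 16.4 and 9.08 CPM in pSHR. It was lowest on average in pSHR, whose libraries overlapped those of pGL2, with a log2 change from 35S of -2.42 ± 0.43 (SE, n = 2 and 2; edgeR adjusted p = 4.43e-05). PSBS, which dissipates excess light energy, had 11.1 and 11.8 CPM in 35S and 1.63 and 0.831 CPM in pSHR, a log2 change of -3.21 ± 0.52 (edgeR adjusted p = 1.36e-05). PSBO1, the main stabilizer of the water-splitting cluster, had 16.8 and 17.7 CPM in 35S and 3.58 and 4.34 CPM in pGL2, its lowest line. Counting by libraries alone, both 35S libraries exceeded all 8 tissue libraries for 19 of 34 members, against 2.68% of all genes. Taken line by line, both tissue libraries lay below both 35S libraries for 29, 24, 29 and 27 members of pBRN2, pGL2, pSCR and pSHR, against 43%, 44.6%, 37.7% and 36.8% of all genes. They lay above both 35S libraries for 0 members in each line, against 30.8%, 36.8%, 28.8% and 37.3% of all genes.

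LHCA1 (AT3G54890), the LHCA gene with the highest mean over the 48 libraries, showed no call in any tissue line. It had 2.56 and 2.16 CPM in 35S, 1.92 and 0.884 CPM in pBRN2, 0.860 and 1.02 CPM in pGL2, 1.05 and 0.654 CPM in pSCR, and 2.13 and 1.51 CPM in pSHR. The pSHR libraries came closest to the whole root, just under both 35S values. RBCS1A (AT1G67090) had 37.4 and 30.2 CPM in 35S, 8.50 and 3.57 CPM in pBRN2, 6.67 and 10.4 CPM in pGL2, 7.18 and 1.45 CPM in pSCR, and 28.5 and 13.4 CPM in pSHR. It was called lower in pSCR alone, with a log2 change of -2.96 ± 1.05 (edgeR adjusted p = 0.029), and that call was lost when either 35S replicate or pSCR replicate 2 was left out.

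**Figure D2:**
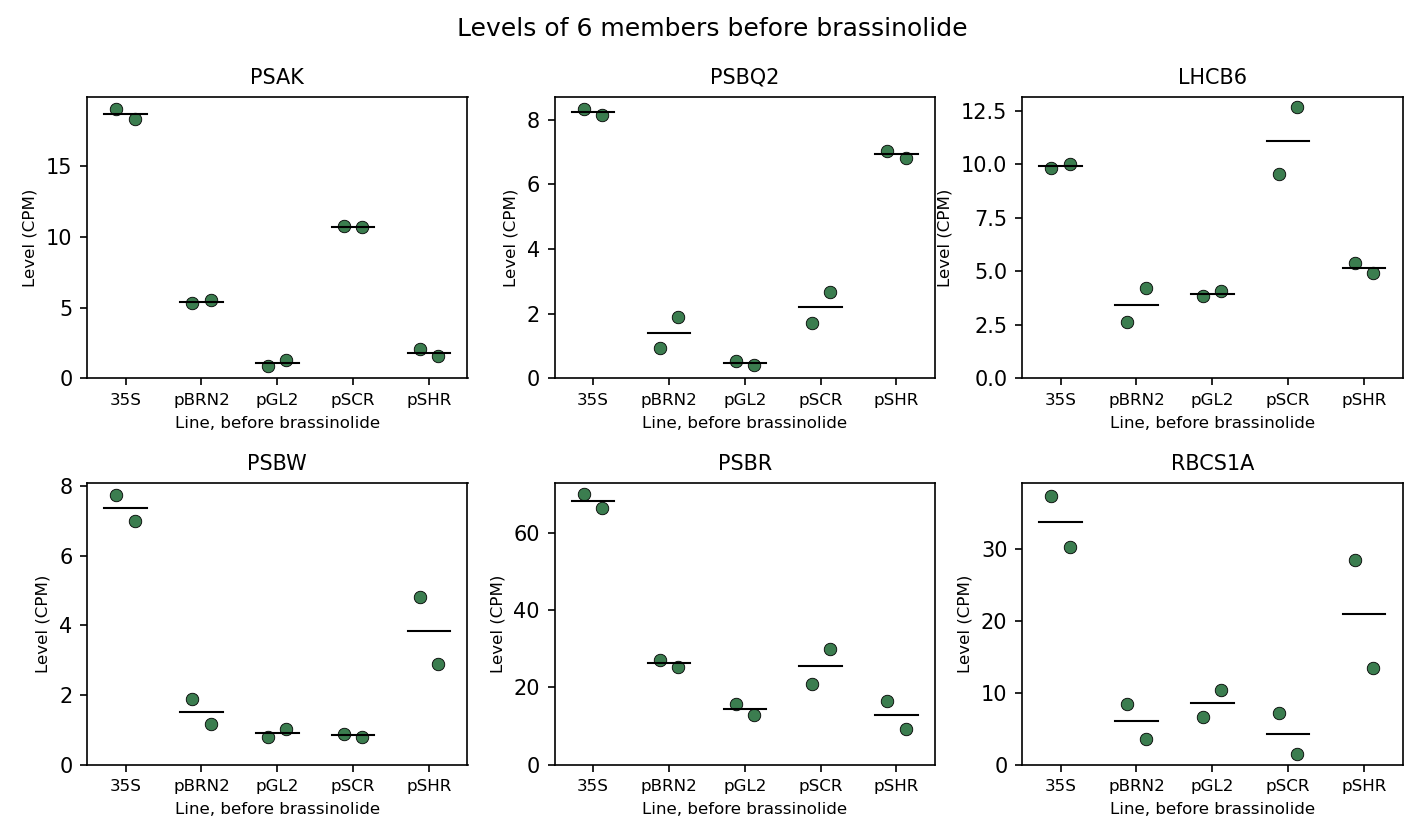
Levels in CPM of 6 members in the 5 Col-0 lines before brassinolide, with each of 2 libraries as a point and their mean as a bar. PSAK is highest in 35S and next in pSCR, PSBQ2 and PSBW are next to 35S in pSHR, and LHCB6 in pSCR is close to its level in 35S.

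Between tissue lines, differences were tested for each member. PSAK had 19.0 and 18.4 CPM in 35S, 10.7 and 10.7 CPM in pSCR, 5.32 and 5.54 CPM in pBRN2, 2.04 and 1.60 CPM in pSHR, and 0.894 and 1.27 CPM in pGL2. These 5 pairs did not overlap. It was higher in pSCR than in pGL2 by a log2 change of 3.32 ± 0.39 (edgeR adjusted p = 2.99e-08), lower in pSHR than in pSCR by -2.55 ± 0.37 (edgeR adjusted p = 1.08e-06), and lower in pGL2 than in pBRN2 by -2.33 ± 0.39 (edgeR adjusted p = 1.28e-05).

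PSBQ2 (AT4G05180), a luminal protein of the water-splitting complex, followed another order. It had 8.32 and 8.14 CPM in 35S, 7.04 and 6.80 CPM in pSHR, 1.72 and 2.66 CPM in pSCR, 0.940 and 1.89 CPM in pBRN2, and 0.550 and 0.410 CPM in pGL2. The pSCR and pBRN2 libraries overlapped in that order. PSBQ2 was higher in pSHR than in pSCR by 1.66 ± 0.43 on the log2 scale (edgeR adjusted p = 0.00247). PSBW and PSBP1, further photosystem II proteins, were also higher in pSHR than in pSCR, with log2 changes of 2.195 ± 0.69 and 1.85 ± 0.51 (edgeR adjusted p = 0.0114 and 0.00451).

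LHCB6 (AT1G15820), a minor antenna protein of photosystem II, had 9.83 and 10.02 CPM in 35S and 9.53 and 12.7 CPM in pSCR, so that these libraries overlapped. It had 2.64 and 4.22 CPM in pBRN2, 3.85 and 4.06 CPM in pGL2, and 5.39 and 4.89 CPM in pSHR. It was higher in pSCR than in pGL2 by 1.49 ± 0.39 on the log2 scale (edgeR adjusted p = 0.00235). Because its gene model overlaps a neighbour, part of these reads may belong to that entry.

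In all, 6 members were higher and 1 lower in pSCR than in pGL2, where 21.2% of all genes were higher and 24.7% lower, and the count of both was 4 without pGL2 replicate 2 or without either pSCR replicate. Before adjustment 1 member was lower, against 27.3% of all genes. Between pSHR and pSCR, 3 were higher and 2 lower, against 19.4% and 19.9% of all genes, and both pSHR libraries lay above both pSCR libraries for 12 members, against 36.2%. The balance turned to 1 higher and 2 lower without pSCR replicate 1 or pSHR replicate 1, and to 1 of each without pSCR replicate 2. Between pGL2 and pBRN2, 3 members were lower and 0 higher by edgeR, against 24.7% and 24% of all genes, and DESeq2 called 0 higher. Before adjustment, at p under 0.05, 4 were lower and 0 higher, against 28.2% and 26.6%, and both pGL2 libraries lay below both pBRN2 libraries for 16 members, against 38.6%. That count was 1 without pBRN2 replicate 2 or without either pGL2 replicate. With only the compared groups in the fit, 11 members were called between pSCR and pGL2, and 8 between pGL2 and pBRN2, of which 3 were higher and 5 lower. The share of all genes called in that fit is not given here.

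**Figure D3:**
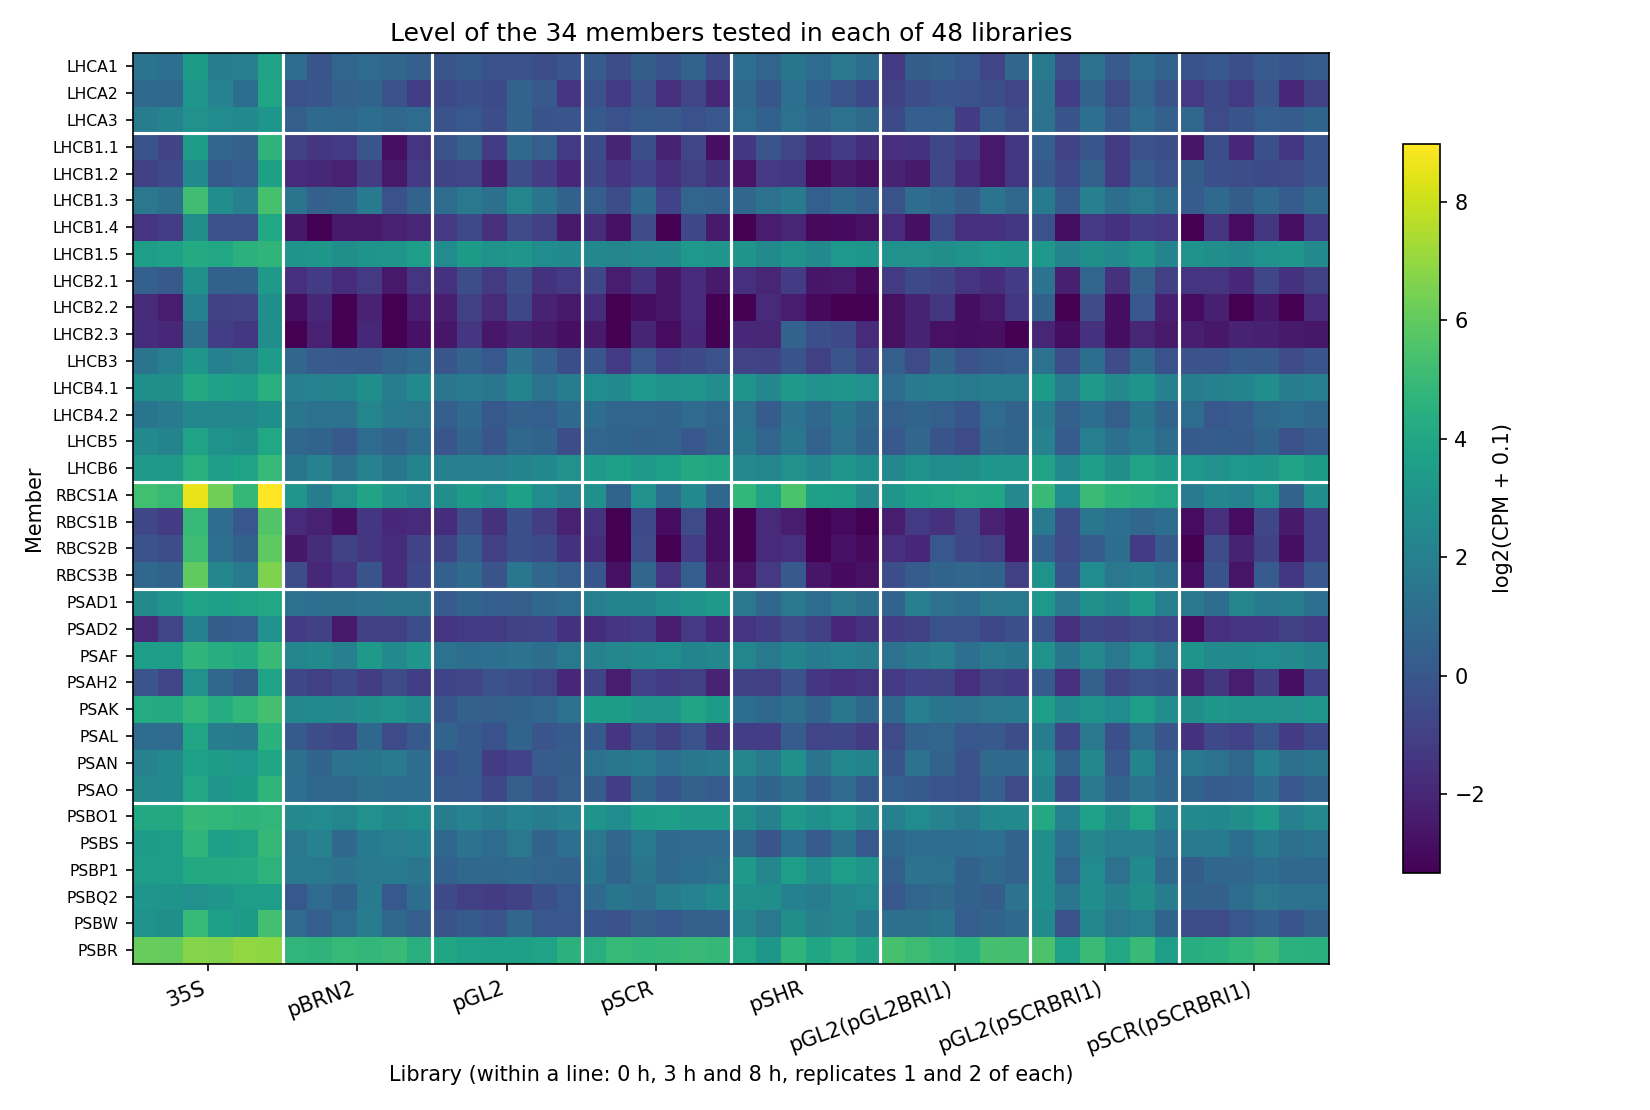
Heat map of log2(CPM + 0.1) for the 34 members tested in the 48 libraries, with white lines between lines and between families. RBCS1A and PSBR are the brightest rows, and the 35S replicate 1 column at 3 h and replicate 2 column at 8 h are bright in most LHCB and RBCS rows.

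Other gene groups of photosynthesis were compared with 35S at 0 h in the same fit, where 22.9%, 25.9%, 22% and 18.9% of all genes were lower and 18.1%, 23%, 12.4% and 7.73% higher in pBRN2, pGL2, pSCR and pSHR. Of 22 further electron transport and photosystem genes, 9, 14, 12 and 6 were lower in these lines by edgeR's quasi-likelihood test with Benjamini-Hochberg adjustment, and 1, 0, 0 and 0 were higher, with medians of -1.30, -2.02, -1.43 and -0.90. FD2, a leaf ferredoxin, fell to 8.95 ± 0.737 CPM in pGL2 from 90.7 ± 2.45 CPM in 35S. Of 16 Calvin cycle genes, 5, 4, 2 and 0 were lower and 0, 1, 2 and 1 higher. Of 15 chlorophyll synthesis genes tested, 6, 7, 3 and 2 were lower and 1, 2, 2 and 0 higher. HEMA1, which makes the first committed enzyme of tetrapyrrole synthesis, was higher in pBRN2 and pGL2, with log2 changes of 1.01 and 0.97 (edgeR adjusted p = 0.00485 and 0.00503). Of 8 photorespiration genes, 3, 4, 1 and 1 were lower and 0, 0, 2 and 1 higher.

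Among 10 chloroplast-encoded photosynthesis genes, 6 were tested. By edgeR 4 of them were higher than 35S in pBRN2 and 3 in pGL2, against 18.1% and 23% of all genes, with medians of 2.14 and 1.34. None was lower by edgeR, also before adjustment, or by DESeq2, where 27.8% and 29.2% of all genes were lower before adjustment. The rbcL gene, which encodes the Rubisco large subunit, had 2.39 ± 0.311 CPM in pBRN2 and 0.342 ± 0.00391 CPM in 35S. Whether chloroplast-encoded mRNA was bound to the tagged ribosomes or carried over in the purification was not tested. The RBCS genes summed to 6.73 ± 3.78 CPM in pBRN2, below both 35S libraries.

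The regulators were not uniformly lower. GLK2 had 2.74 and 3.04 CPM in 35S, 1.70 and 0.803 CPM in pBRN2, 0.344 and 0.410 CPM in pGL2, 1.55 and 1.35 CPM in pSCR, and 2.79 and 2.15 CPM in pSHR. It was lower than 35S in pGL2 by -2.93 ± 0.43 on the log2 scale (edgeR adjusted p = 1.91e-06) and higher in pSCR than in pGL2 by 1.94 ± 0.45 (edgeR adjusted p = 0.000574). HY5 was at 40.2 ± 4.57 CPM in 35S and 33.2 to 46.3 CPM on average in the tissue lines. GLK1 stayed at or under 0.110 CPM in the 0 h libraries of the Col-0 lines, near the floor of 3 counts, and CGA1 had too few counts to be tested.

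Brassinolide was followed first in the whole root, where nearly all members were higher after 3 and 8 h, but with replicates far apart. The member sum was 268.2 and 262.3 CPM at 0 h, 1037.9 and 427.2 CPM at 3 h, and 412.1 and 1403.3 CPM at 8 h. All 4 treated libraries exceeded both 0 h libraries for 32 of 34 members, against 13.8% of all genes, and the exceptions were RBCS1A and PSBQ2. At 3 h alone, 33 members had both treated libraries above both 0 h libraries, against 25.5% of all genes, and at 8 h 33 against 25.6%. Replicate 1 at 3 h exceeded replicate 2 in 31 of 34 members, and replicate 2 at 8 h exceeded replicate 1 in 33.

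The size of the difference depended on the family and on the library. Over the 0 h mean, the median member was at 3.50-fold and 1.80-fold in replicates 1 and 2 at 3 h, and at 1.64-fold and 5.03-fold at 8 h. In replicate 2 at 8 h the family medians were 73.0-fold for RBCS, 9.06-fold for LHCB, 5.77-fold for LHCA, 3.83-fold for PSA and 1.93-fold for PSB. In replicate 1 at 8 h the same medians were 1.95, 1.71, 1.44, 1.80 and 1.43. The families thus spread widely in 1 library of each time and lay close together in the other.

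**Figure D4:**
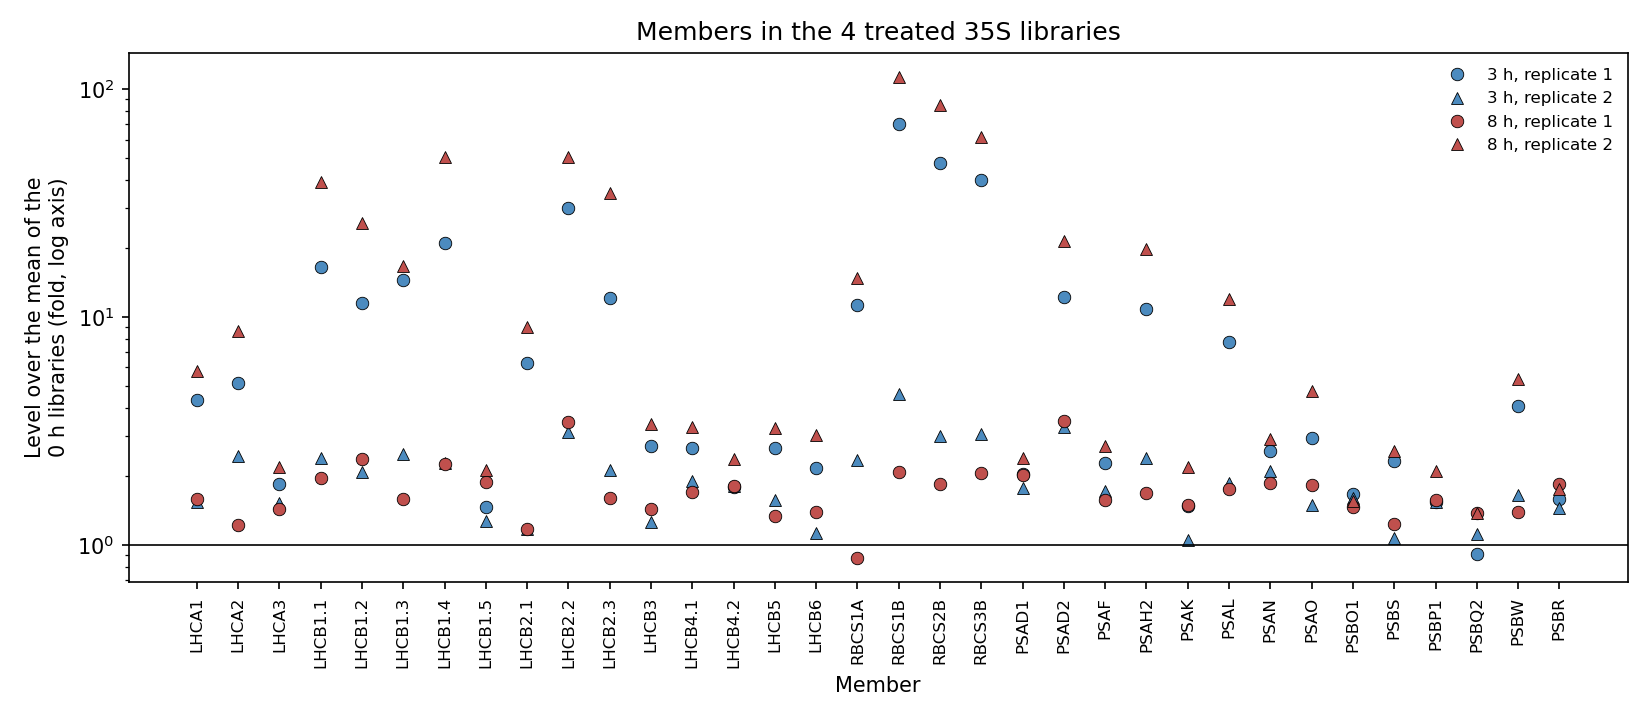
Level of each of the 34 members in the 4 treated 35S libraries as a fold over the mean of the 0 h libraries, on a log axis, with a line at 1. In replicate 1 at 3 h and replicate 2 at 8 h the LHCB1, LHCB2 and RBCS genes reach up to 70.2-fold and 113-fold, and the other treated libraries lie between 0.874-fold and 4.59-fold.

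RBCS1A had 37.4 and 30.2 CPM at 0 h, 383 and 79.9 CPM at 3 h, and 29.6 and 503 CPM at 8 h. Replicate 1 at 8 h lay just below both 0 h libraries. LHCB6 had 9.83 and 10.02 CPM at 0 h, 21.5 and 11.2 CPM at 3 h, and 13.8 and 30.0 CPM at 8 h, and LHCA1 had 2.56 and 2.16, 10.2 and 3.63, and 3.75 and 13.6 CPM. Both were above their 0 h values in each treated library. PSAK had 19.0 and 18.4 CPM at 0 h, 27.8 and 19.6 CPM at 3 h, and 27.9 and 41.2 CPM at 8 h.

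PSBR differed from these in that its replicates stayed together. It had 69.9 and 66.2 CPM at 0 h, 109 and 98.7 CPM at 3 h, and 126 and 119 CPM at 8 h. PSBO1 was alike, with 16.8 and 17.7 CPM at 0 h, 28.8 and 27.7 CPM at 3 h, and 25.3 and 26.8 CPM at 8 h. The log2 changes at 8 h were 0.85 ± 0.40 for PSBR and 0.59 ± 0.43 for PSBO1, and neither passed (edgeR adjusted p = 0.451 and 0.655).

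With edgeR's quasi-likelihood test and Benjamini-Hochberg adjustment, 0 of 34 members passed at 3 h and 2 at 8 h, where 0.143% and 0.167% of all genes were called higher. At an unadjusted p under 0.05, 24 and 29 members were higher and 0 lower, against 6.05% and 5.8% of all genes, and DESeq2 called 2 and 9 higher. The member medians were log2 changes of 1.37 and 1.73, against 0.03 over all genes at both times. The members called at 8 h were LHCB1.2 and PSAD2. LHCB1.2 (AT1G29910), a main antenna protein, had 0.417 and 0.564 CPM at 0 h and 1.17 and 12.7 CPM at 8 h, a log2 change of 3.81 ± 0.89 (edgeR adjusted p = 0.0438). PSAD2 (AT1G03130), the ferredoxin-docking subunit of photosystem I, had 0.183 and 0.501 CPM at 0 h and 1.198 and 7.33 CPM at 8 h, a log2 change of 3.65 ± 0.72 (edgeR adjusted p = 0.012).

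These counts rest on single libraries, and shares over all genes are not given for the fits that follow. Without replicate 2 at 8 h, 0 members passed and the median was 0.72, while without replicate 1 at 8 h 17 passed and the median was 2.32. Leaving out either 0 h library left 0 at 8 h, as did a fit of the compared groups alone, and without the filter on low counts 1 passed. At 3 h, the median was 0.89 with 0 called without replicate 1 and 1.78 with 3 called without replicate 2. The direction of the median was the same in all of these.

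The 2 libraries with the high values also held counts of leaf and shoot genes. FIL, YAB2, YAB3 and YAB5, YABBY factors of leaves, and EPFL9, a stomatal peptide, summed to 20 counts in replicate 1 at 3 h and 26 in replicate 2 at 8 h. They summed to 0 in both 0 h libraries, to 2 in each of the other treated 35S libraries, and to 0 to 6 in the 46 libraries other than those 2. Of 17 shoot genes listed, 16 and 15 had a count in the high libraries and 4 to 11 in the others, and MUTE, a stomatal factor, had 1 count in replicate 1 at 3 h and GL1 0 in replicate 2 at 8 h. CER6, a wax gene of the shoot, had 98 and 104 counts in them against 8 and 5 at 0 h, but it reached 8.28 CPM elsewhere, above the 3.30 and 2.94 CPM here, so it does not mark shoot alone. Some other listed genes did not rise in the 2 high libraries. CER1 had 9 and 8 counts, CER3 563 and 581, TMM 8 and 6, and STM 2 and 1. Over both 0 h libraries together these genes had 84, 1404, 25 and 9 counts. The summed level of the whole list was 24.3 and 21.7 CPM in the high libraries and 23.1 CPM at 0 h in both libraries. Most counts of the list in these libraries were those of CER3, so this sum says little about the leaf genes. The part of shoot mRNA in the higher member levels was not tested. This holds also for the other treated 35S libraries, with YABBY and EPFL9 sums of 2 counts each and median folds of 1.80 and 1.64.

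**Figure D5:**
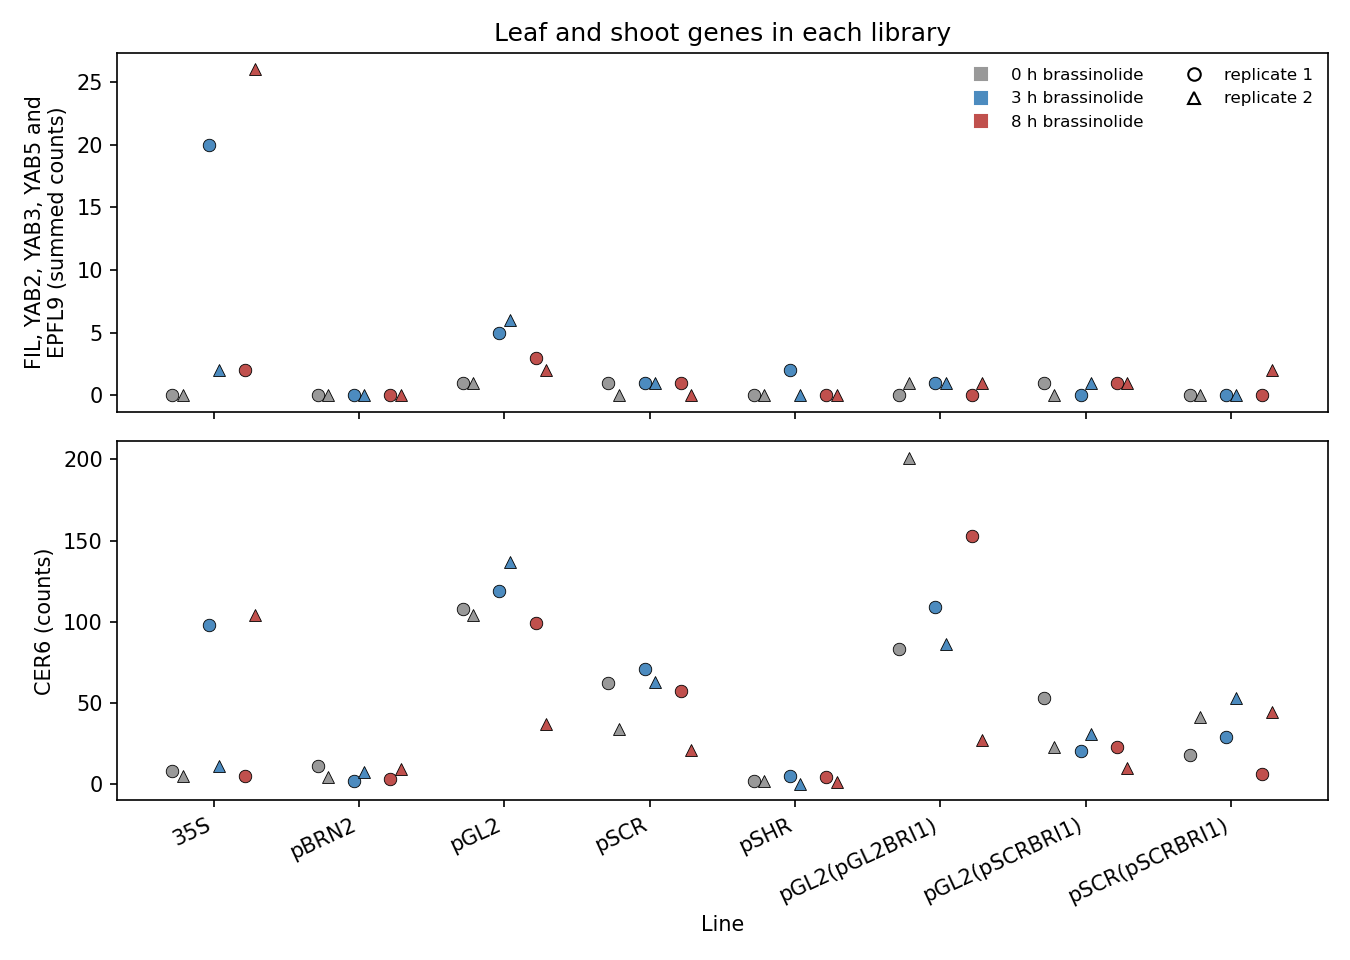
Counts per library of 5 leaf genes summed, above, and of CER6, below, by line, with color for hours of brassinolide and shape for the replicate. The leaf genes reach 20 and 26 counts in 2 treated 35S libraries and at most 6 elsewhere, and CER6 has many counts in pGL2 and pGL2(pGL2BRI1) as well.

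The makeup of the RBCS counts moved with the same libraries. RBCS1A took 92.6% of RBCS counts in each 0 h library of 35S, with 95% exact binomial intervals of 91.2% to 93.8% and 90.9% to 94.1%, which cover counting error only. Its share was 75.2% (74.5% to 75.9%) in replicate 1 and 90% (89% to 90.9%) in replicate 2 at 3 h. At 8 h it was 84.5% (82.4% to 86.4%) in replicate 1 and 71.0% (70.5% to 71.6%) in replicate 2. RBCS1B, RBCS2B and RBCS3B together had 115 and 77 counts at 0 h, 3757 and 390 at 3 h, and 204 and 7251 at 8 h. The RBCS1A share over the 6 libraries of a line had a median of 98.9% in pSHR, from 95.2% to 99.8%, and of 74.8% in pGL2, from 70.0% to 83.5%, so that these lines did not overlap. Reads shared among the 3 genes of chromosome 5 do not enter RBCS1A, which shares no 50-base window with them.

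Related gene groups in 35S gave no call by edgeR at 8 h. By its quasi-likelihood test with adjustment, 0 of 22 electron transport genes, 0 of 16 Calvin cycle genes and 0 of 8 photorespiration genes passed at 8 h. The counts at an unadjusted p under 0.05 were 14, 11 and 3 higher, against 5.8% of all genes, DESeq2 called 2, 2 and 1, and the medians were 0.98, 2.04 and 0.79. Chlorophyll synthesis genes had a median of 0.34, with 2 of 15 higher at an unadjusted p under 0.05, and regulators 0.21, with 5 of 18, and neither list had a call by edgeR or DESeq2. Chloroplast-encoded genes had a median of -0.05, with 0 of 6 past an unadjusted p of 0.05 and 0 called by edgeR or DESeq2. GLK2 had 2.79 and 5.94 CPM at 3 h and 5.99 and 3.48 CPM at 8 h, and thus was lower in the library with more member mRNA at each time. HY5 had 30.4 and 50.2 CPM at 3 h and 64.1 and 39.6 CPM at 8 h, with the same order of libraries. GLK1 had 0.336 and 0.137 CPM at 3 h and 0.106 and 0.537 CPM at 8 h, the opposite order, from 10 and 6 counts at 3 h and 4 and 19 counts at 8 h.

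No tissue line of Col-0 gave a member that passed after brassinolide. By edgeR's quasi-likelihood test with adjustment, 0 of 34 members passed at 3 and 8 h in pBRN2, pGL2, pSCR and pSHR, and DESeq2 also called 0. At an unadjusted p under 0.05 the counts were 3 higher in pSCR at 8 h, 1 higher and 1 lower in pSHR at 3 h, and 0 in the other comparisons. The matching shares over all genes were 3.4% higher and 3.67% lower in pSCR, and 3.42% higher and 1.59% lower in pSHR. Where 0 members passed, the shares higher and lower were 6.37% and 6.36% in pBRN2 at 3 h and 8.02% and 6.85% at 8 h. They were 5.11% and 4.77% in pGL2 at 3 h and 7.97% and 9.05% at 8 h. In pSCR at 3 h they were 2.52% and 2.73%, and in pSHR at 8 h 2.21% and 1.12%. With adjustment, the share of all genes called in a direction was at most 2.03% in pGL2, the value of lower genes at 8 h. It was at most 0.576% in pBRN2, 0.0572% in pSCR and 0.0143% in pSHR. At such shares, 0 of 34 members passing does not set the members apart from all genes. The member sums at 0, 3 and 8 h averaged 94.7, 110.1 and 103.3 CPM in pBRN2, 69.4, 71.8 and 69.4 CPM in pGL2, 99.6, 113.5 and 127.2 CPM in pSCR, and 104.5, 131.1 and 108.6 CPM in pSHR.

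The pSCR libraries lay highest at 8 h, with sums of 134.7 and 119.7 CPM above the 101.2 and 97.9 CPM at 0 h. LHCB6 in pSCR had 9.53 and 12.7 CPM at 0 h, 9.98 and 12.5 CPM at 3 h, and 17.4 and 15.6 CPM at 8 h. The median log2 change of members in pSCR at 8 h was 0.20, from -1.08 to 1.49, and 8 of 34 had both libraries above both 0 h libraries, against 15.6% of all genes. In pSHR replicate 1 had the higher sum at each time, with 127.4 against 81.6, 171.7 against 90.4 and 126.6 against 90.6 CPM, and at 3 h all 34 members were higher in replicate 1.

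The change at 8 h in each tissue line was also compared with that in 35S in the same fit. By edgeR with adjustment 0 members passed for pBRN2, pGL2, pSCR or pSHR, and DESeq2 called 0, while 0.0143% of all genes or fewer were lower. At an unadjusted p under 0.05, 10, 17, 10 and 13 members had a smaller change than in 35S, against 3.65%, 4.69%, 2.18% and 1.54% of all genes. A larger change was found for 0 members, against 3.12%, 3.57%, 1.75% and 2.03% of all genes. The medians of the difference were -1.75, -1.72, -1.39 and -1.59. All 4 comparisons share the 35S libraries, including replicate 2 at 8 h.

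In the bri1-116 lines the members stayed in the range of the tissue lines except in libraries labelled pGL2(pSCRBRI1). Member sums were 84.8 to 115.4 CPM in pGL2(pGL2BRI1), 87.9 to 123.3 CPM in pSCR(pSCRBRI1), and 67.4 to 240.4 CPM in libraries labelled pGL2(pSCRBRI1). After brassinolide 0 members passed in these lines by edgeR or DESeq2, and 0 at an unadjusted p under 0.05. At most 1.61% of all genes were called in a direction with adjustment, and at most 7.9% before it.

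At 0 h, PSAK and PSBR were higher in pGL2(pGL2BRI1) than in pGL2, where 6.64% of all genes were higher. By edgeR, by DESeq2 or before adjustment 0 members were lower, against 4.74% of all genes with adjustment and 11.8% before it. PSAK had 1.60 and 3.91 CPM in pGL2(pGL2BRI1) and 0.894 and 1.27 CPM in pGL2, a log2 change of 1.36 ± 0.40 (edgeR adjusted p = 0.0257). The higher value came from replicate 2, which also held 2194 CPM of endodermis markers against 125 CPM in replicate 1, and the part of those cells was not tested. PSBR had 41.4 and 34.7 CPM against 15.6 and 12.9 CPM, a log2 change of 1.42 ± 0.42 (edgeR adjusted p = 0.0266), with both libraries high. Without either pGL2 replicate or without pGL2(pGL2BRI1) replicate 2, 0 members passed, and with the compared groups alone 1 passed. HY5 was higher too, by 0.66 ± 0.21 on the log2 scale (edgeR adjusted p = 0.037).

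Between pSCR(pSCRBRI1) and pSCR 0 members passed by edgeR or DESeq2 and 0 at an unadjusted p under 0.05. With adjustment 2.52% of all genes were higher and 0.462% lower, and before it 9.82% and 6.15%. The sums were 87.9 and 89.3 CPM against 101.2 and 97.9 CPM. Libraries labelled pGL2(pSCRBRI1) were set against pSCR(pSCRBRI1), and PSBQ2 and PSBW were higher, where 0.81% of all genes were higher. PSBQ2 had 6.84 and 2.74 CPM against 1.29 and 1.27 CPM, a log2 change of 1.91 ± 0.45 (edgeR adjusted p = 0.0092). PSBW had 5.86 and 0.768 CPM against 0.645 and 0.599 CPM, a log2 change of 2.42 ± 0.70 (edgeR adjusted p = 0.0463).

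That difference lay mostly in 1 library. In replicate 1 at 0 h, 31 of 34 members were over 2-fold higher than in replicate 2, which is 91.2% of members against 4.06% of all genes that differed over 2-fold in either direction. The sums were 240.4 and 67.4 CPM. Without replicate 1 of that group 0 members passed, and without replicate 2 4 passed, while without either pSCR(pSCRBRI1) replicate the count was 0. Without the filter on low counts 1 passed. FIL, YAB2, YAB3, YAB5 and EPFL9 summed to 1 count in replicate 1 and 0 in replicate 2. Replicate 1 was also the higher at 3 h in 33 of 34 members and at 8 h in 32.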

How the data were processed

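The deposited table holds raw read counts per gene in 48 libraries. According to the submitters' processing notes, the authors checked reads with FastQC 0.10.1, aligned single-end 50-base reads to TAIR10 with TopHat2 2.0.9 and counted them with HTSeq 0.5.3p3. CPM were computed here from the deposited counts with TMM-scaled totals (edgeR 4.0.16, R 4.3.3). Genes passing edgeR's filterByExpr, at a minimum count of 10, were fitted in 1 quasi-likelihood model over all 48 libraries with a mean per group, and p-values were adjusted by Benjamini-Hochberg over 20995 genes at 0.05. Group comparisons used only this test, with 2 libraries a group. Its p-values and SE rest on a spread between replicates estimated over all 24 groups together. They do not measure the spread of the compared libraries alone. Alternatives were RLE scaling, no filter, the compared groups alone, DESeq2 1.42.0, a replicate block, the read note as a covariate and leaving out each library. On simulated data for pGL2 against 35S at 0 h, with 20995 genes, the test recovered 74% of 4-fold and 26% of 2-fold increases. Few genes differed in the simulation, with 101 called, while the real comparison called 23% of genes higher and 25.9% lower. These rates therefore need not hold for the real comparison.

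The members and gene lists were chosen with earlier results of these data known. Values in every library are given for the highest member of each family and for at most 5 called members per direction and comparison. From other lists, at most 3 called genes per direction were named, and the regulators GLK1, GLK2, HY5, GNC and CGA1. Values of PSBO1, and of RBCS1B, RBCS2B and RBCS3B together, were added after they were seen. Sequences come from RefSeq TAIR10.1, in which 61.9% of 26711 entries share at least 1 end with the deposited gene.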

Additional observations from a re-analysis of the deposited data

How the results depend on the processing

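The counts of called members in 30 comparisons were recomputed under each setting. All 30 stayed within 1.5 times under RLE scaling and with the read note as a covariate, and 28 without the filter and 28 with DESeq2. With the compared groups alone, 20 members were called for pBRN2 and 20 for pSHR against 35S, 11 for pSCR against pGL2, 8 for pGL2 against pBRN2, 1 for pGL2(pGL2BRI1) against pGL2, and 0 for 35S at 8 h. Without the filter, 1 was called for libraries labelled pGL2(pSCRBRI1) against pSCR(pSCRBRI1) and 1 for 35S at 8 h. DESeq2 called 2 for 35S at 3 h and 9 at 8 h. With the replicate number as a block, 1 was called for libraries labelled pGL2(pSCRBRI1) against pSCR(pSCRBRI1), 3 for 35S at 3 h, 7 at 8 h, and 1 for pSCR at 8 h. No label says that a replicate number marks a shared batch. Deviations of same-numbered libraries correlated at 0.398 to 0.741 between times in pSCR, pBRN2, libraries labelled pGL2(pSCRBRI1) and pSCR(pSCRBRI1), at 0.0156 to 0.139 in pSHR, and with both signs in 35S, from -0.752 to 0.244, in pGL2, from -0.132 to 0.369, and in pGL2(pGL2BRI1), from -0.733 to 0.74. Over 28 pairs of lines the median was -0.013. Within the first 4 lines this is a hint of pairing from the data, not from the design. With exchanged numbers as a crossed replicate block, chosen after seeing the data, 25 members were called for 35S at 3 h, 30 at 8 h and 1 for pGL2(pGL2BRI1) at 3 h. In 35S the exchange put the high library of 3 h and that of 8 h in 1 block. The 35S counts thus follow from that choice and are no separate evidence. The cause of these shifts was not tested. Shares over all genes are given for the main fit alone, so shifts in calls over all genes under other settings are not shown.

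Leaving out 1 library at a time gave 8 to 10 members for pBRN2, 14 to 15 for pGL2, 9 to 11 for pSCR and 4 to 8 for pSHR against 35S. It gave 4 to 5 for pSCR against pGL2, 2 to 4 for pSHR against pSCR, where 3 were called without pSCR or pSHR replicate 1 with the balance turned, and 1 to 3 for pGL2 against pBRN2. It gave 0 to 2 for pGL2(pGL2BRI1) against pGL2, 0 to 4 for libraries labelled pGL2(pSCRBRI1) against pSCR(pSCRBRI1), 0 to 3 for 35S at 3 h and 0 to 17 at 8 h. A group left with 1 library was assumed to vary like the others. Of 73 single-member calls, 35 held under all settings, 38 were lost under some and 0 changed direction. Under RLE scaling the summed level moved by over 1 SD in 2 of 24 groups. With 2 libraries a group, 2-fold differences were recovered in 26% and 28% of simulated increases and decreases, and members near the floor of 3 counts cannot be ranked.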
